A study of Mus musculus with 20 samples.

Results

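The genes described here encode the proteins of the mitochondrial ribosome that carry the symbols Mrpl and Mrps. They were taken from the count table as the rows whose gene name is Mrpl or Mrps followed by a number and, in some cases, a letter from a to c. The rule found 77 of the 29986 genes in the table, on 17 chromosomes, and 76 of these 77 were among the 14420 genes with enough counts to be tested. Of the 77 genes, 50 encode proteins of the large subunit, 26 encode proteins of the small subunit, and 1, Mrps36, was assigned to neither. The cells were tenocytes, the fibroblast-like cells of tendon, taken from the tail of adult C57Bl/6 mice that were wild type. The groups were cells with no IGF1 (0 h) and cells kept for 1, 2, 6 or 24 h in recombinant insulin-like growth factor 1 (IGF1) at 100 ng/mL, with 4 libraries of total RNA at each time. No untreated cultures kept for 1 to 24 h were analysed here, so time in culture and time in IGF1 cannot be told apart. The labels do not say whether replicates came from separate mice or cultures, so the p-values measure the spread between these libraries, which may be technical.

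Mitochondrial ribosomes translate the few proteins that mitochondrial DNA encodes, all of which are core subunits of the respiratory chain and the ATP synthase. Their RNA comes from mitochondrial DNA, whereas every one of their proteins is encoded in the nucleus, made by cytosolic ribosomes and imported. A large part of the proteins has a counterpart in bacterial ribosomes, and the rest are specific to mitochondria. IGF1 is a growth factor that acts through a receptor tyrosine kinase and is known to raise protein synthesis and growth.

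Promoters of nuclear genes for mitochondrial proteins often hold sites of the factors NRF1, GABP (an ETS-family factor) and YY1, so these letters were looked for from 250 bases before to 50 bases after the RefSeq start site (GRCm38.p6) on both strands. Of the 77 genes, 68 had a window in the table. The NRF1 letters CGCATGCG, which read the same on both strands, stood in 7 of the 68 (10.3%), against 2.07% of 27025 genes with such a window. The ETS letters CCGGAAGT stood in 12 of the 68 (17.6%), against 4.31% of all, and the YY1 letters AAGATGGC also stood in 12 (17.6%), against 3.19% of all. The E-box CACGTG, which Myc and related factors read, stood in 5 windows (7.35%), against 8.09% of all. The letters CCAAT (39.7%, against 41.1% of all) and TATAAA (7.35%, against 15.7% of all) were also counted and are not marked below. The 27025 genes were not limited to those expressed in these cells, so the shares do not compare these genes with other expressed genes. A match describes the letters and does not show that a factor was bound. The windows of 4 genes are printed 5′ to 3′ in the direction of the gene, with the matched letters of either strand in capitals. Mrpl32 has the NRF1 letters at 86 and 23 bases before the start site and the YY1 letters at 242 bases before it. Mrps26 and Mrps7 are among the genes with the highest rise at 2 h and have 1 match each to the 4 marked motifs (NRF1, ETS, YY1 and E-box). Mrpl18 and Mrps22, also among the highest at 2 h, have 1 match each, but Mrps2 and Mrpl47, likewise among them, have none. Mrps25, with the highest rise at 6 h, and Mrpl24, which fell at 6 h, have none of the 4 motifs either.
Mrpl32, chr13:14612988-14613287, strand -: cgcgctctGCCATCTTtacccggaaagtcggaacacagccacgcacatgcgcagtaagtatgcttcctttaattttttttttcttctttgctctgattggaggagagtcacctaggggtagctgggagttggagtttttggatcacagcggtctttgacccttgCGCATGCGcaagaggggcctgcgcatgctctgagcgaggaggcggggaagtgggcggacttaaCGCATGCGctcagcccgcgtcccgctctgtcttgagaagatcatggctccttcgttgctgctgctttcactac
Mrps26, chr2:130563507-130563806, strand +: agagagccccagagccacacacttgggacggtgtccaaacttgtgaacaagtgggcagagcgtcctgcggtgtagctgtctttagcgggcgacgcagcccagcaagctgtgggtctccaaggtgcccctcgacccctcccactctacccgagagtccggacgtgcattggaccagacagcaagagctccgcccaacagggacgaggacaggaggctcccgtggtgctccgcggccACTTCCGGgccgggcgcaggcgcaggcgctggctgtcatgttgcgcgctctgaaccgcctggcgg
Mrps7, chr11:115603890-115604189, strand +: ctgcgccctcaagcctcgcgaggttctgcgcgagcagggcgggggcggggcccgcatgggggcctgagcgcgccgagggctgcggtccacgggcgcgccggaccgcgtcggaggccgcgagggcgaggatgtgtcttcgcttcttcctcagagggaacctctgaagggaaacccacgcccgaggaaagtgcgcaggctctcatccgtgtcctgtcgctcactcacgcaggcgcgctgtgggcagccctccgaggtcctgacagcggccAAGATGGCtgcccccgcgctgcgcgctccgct
Mrpl24, chr3:87919294-87919593, strand +: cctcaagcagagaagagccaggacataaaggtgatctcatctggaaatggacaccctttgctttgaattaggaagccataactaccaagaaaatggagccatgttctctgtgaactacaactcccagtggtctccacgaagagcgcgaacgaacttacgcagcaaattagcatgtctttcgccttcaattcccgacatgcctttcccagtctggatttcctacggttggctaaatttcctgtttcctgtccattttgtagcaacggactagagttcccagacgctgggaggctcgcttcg

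The calls of genes with and without these letters are given as a description, with no test. Of all tested genes, 20.6% were called higher at 6 h and 20.2% at 2 h. At 6 h, 16 of the 29 tested genes with NRF1, ETS or YY1 letters were called higher than at 0 h, with a median log2 fold change of 0.26. Of the 38 tested genes with a window and none of these letters, 18 were called higher, with a median of 0.27. For the ETS letters alone, 8 of 12 genes with them were called higher at 6 h (median 0.36), against 26 of 55 without them (median 0.26). At 2 h the counts were 8 of 12 with the ETS letters and 21 of 55 without them, 4 of 12 with the YY1 letters and 25 of 55 without them, and 14 of 29 with any of the 3 motifs and 15 of 38 with none.

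Depth ranged from 13734425 to 22687173 counts per library. Levels are given as CPM, the share of a library's counts on a common scale, adjusted by TMM, a factor that evens out library composition. The 8 tenocyte markers were all present, and their sum averaged 60661 CPM at 2 h and 63001 CPM at 6 h, against 73474 CPM at 0 h. Of the 8, 1 was called higher and 4 lower at 2 h, and 1 higher and 3 lower at 6 h. The endothelial markers, of which 2 of 6 were tested, summed to 7.04 to 11.6 CPM at 6 h and 37.0 to 40.5 CPM at 0 h. The part of these shifts in the results was not tested. The 13 macrophage markers summed to 429 to 1293 CPM at 2 h and 283 to 356 CPM at 0 h, with the highest values in 2 h replicate 2 (1293 CPM) and 2 h replicate 1 (676 CPM). Of the 12 macrophage markers tested, 12 were called higher at 2 h, with a median log2 fold change of 1.13, and Aif1 was too low to test. Schwann cell markers summed to 79.4 CPM in 2 h replicate 2 and to at most 19.2 CPM in any other library. Without 2 h replicates 1 and 2, 37 mitochondrial ribosomal protein genes were called higher at 2 h, with a median log2 fold change of 0.33, against 30 and 0.23 with all libraries. Of all tested genes, 17.3% were higher at 2 h without these replicates and 20.2% with all libraries.

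A different library stood apart for the mitochondrial ribosomal protein genes. 2 h replicate 4 was the highest of the 4 libraries of its time for 70 of the 76 tested genes, and its median log2 difference from the mean of the other 3 was 0.38. Over all tested genes the same difference was 0.33 for genes of up to 1 kb of exonic sequence and 0.32 for those of 1 to 2 kb. It was 0.16 at 2 to 4 kb, −0.08 at 4 to 8 kb and −0.33 above 8 kb. Of the 76 tested genes, 8, 22, 24, 18 and 4 fell in these 5 length classes, in that order. The counts at 2 h and the highest rises at 2 h are therefore given with and without 2 h replicate 4.

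**Figure D1:**
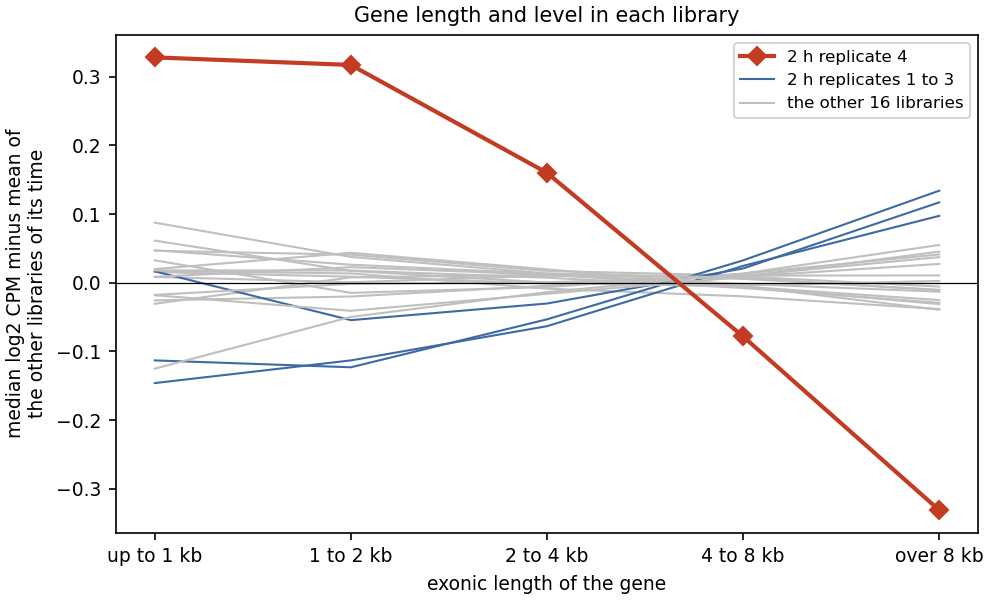
The median difference in log2 CPM between a library and the mean of the other libraries of its time is plotted for 5 classes of exonic gene length, with 1 line per library. The red line, 2 h replicate 4, runs from 0.33 in the shortest class to −0.33 in the longest, while the blue lines of the other 3 libraries at 2 h end between 0.10 and 0.13.

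At 0 h the genes were expressed at moderate and unequal levels. Per kilobase of exonic sequence the median of the 76 tested genes was 7.89 RPKM, with quartiles of 4.21 and 13.6 RPKM. The highest were Mrpl54 with 36.3 ± 2.0 RPKM, Mrpl52 with 25.98 ± 2.87 RPKM and Mrps21 with 24.8 ± 1.8 RPKM (SD, n = 4). The lowest were Mrpl23 with 1.27 ± 0.23 RPKM, Mrps35 with 1.42 ± 0.26 RPKM and Mrps36 with 1.89 ± 0.52 RPKM (SD, n = 4). Lengths from the longest transcript in place of all exons gave 2.66 RPKM for Mrps35 and 3.44 RPKM for Mrps36. Mrpl53 was not tested: it averaged 0.25 counts at 0 h, and 88.0% of its exonic bases are shared with the same-strand gene model Gm42688. Mrpl23, Mrps36 and Mrpl48 also have pseudogenes in the table, so their counts are uncertain.

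After IGF1 most calls among the genes were rises, and they were most numerous at 6 h, followed by 2 h and then 24 h. At 6 h, 37 of 76 were called higher and 2 lower than at 0 h, against 20.6% of all tested genes called higher and 19.6% called lower. At 2 h, 30 were higher and 0 lower, with 20.2% of all tested genes higher and 17.5% lower. At 1 h only 2 were higher, a share below the 6.75% of all tested genes, and 0 were lower, against 3.88%. At 24 h, 12 were higher, close to the background of 12.7%, and 0 lower, against 13.2%. The counts of 0 are from edgeR's quasi-likelihood test, and at an unadjusted p under 0.05 the numbers lower were 0 at 1 h, 0 at 2 h and 1 at 24 h. DESeq2 also called 0 lower at these times. The median log2 fold change of the 76 genes was 0.05 after 1 h, 0.23 after 2 h, 0.26 after 6 h and 0.10 after 24 h, while that of all tested genes lay between −0.0061 and 0.0033. The changes were small: the highest rise of any gene was 0.72 on the log2 scale. In a joint test of all 4 times against 0 h, 45 of 76 genes (59.2%) were called, against 63.7% of all tested genes. At single times 45 genes were called at least once, and 43 of them passed both tests.

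**Figure D2:**
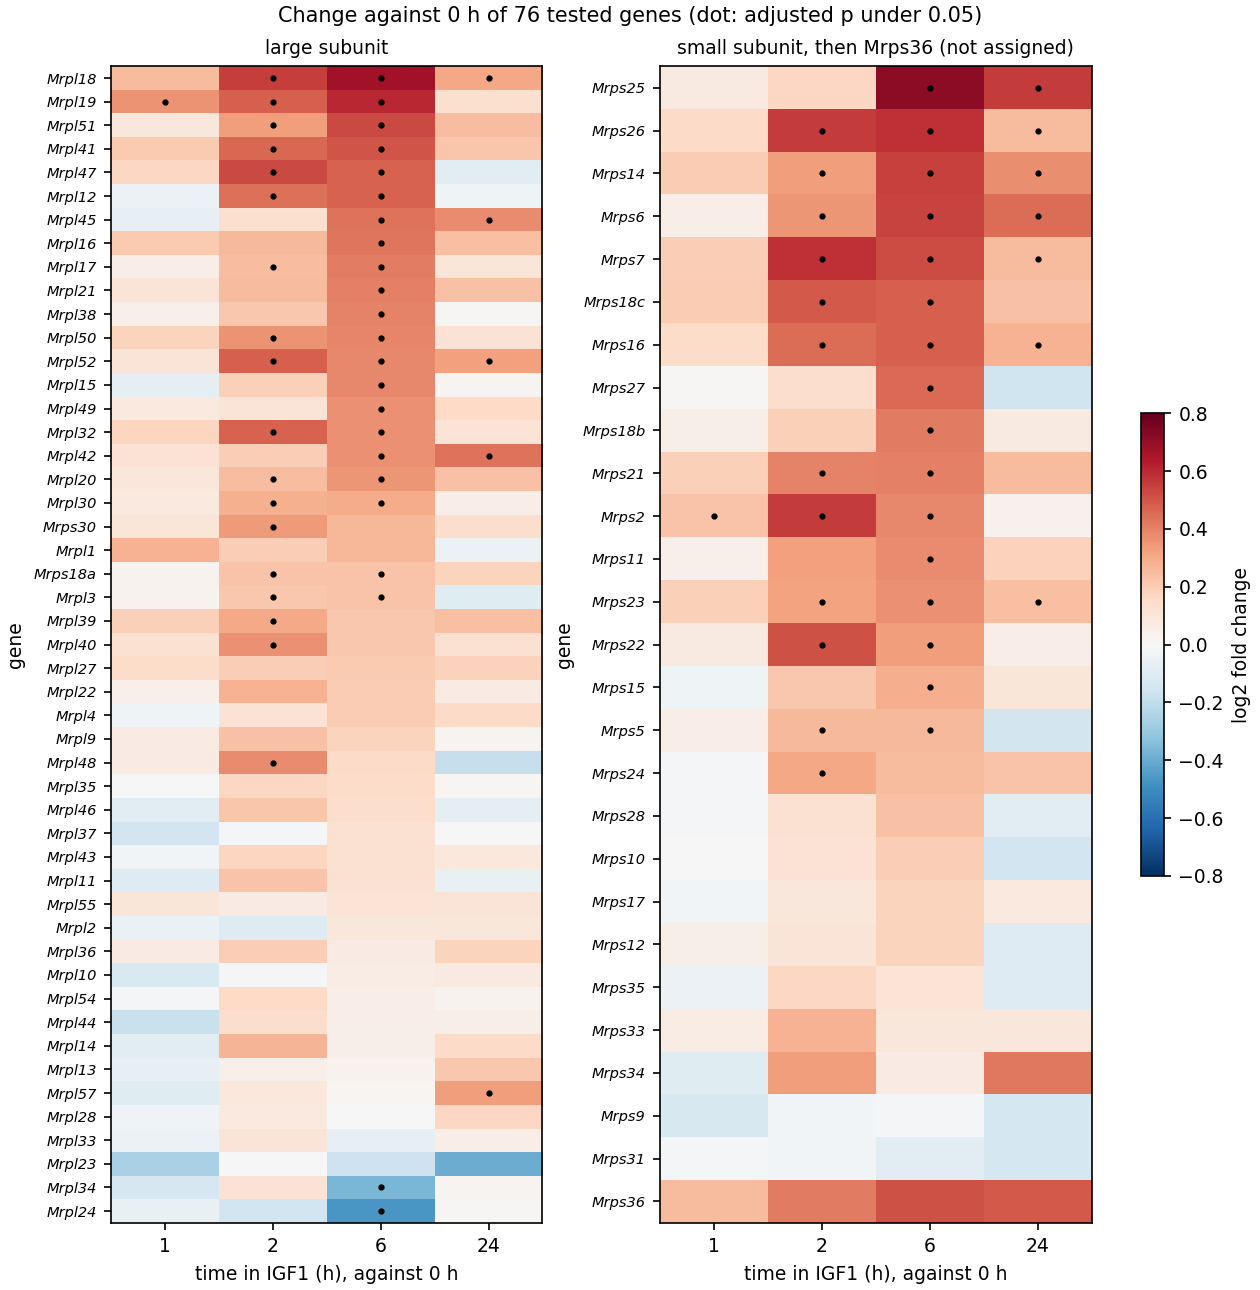
Log2 fold changes against 0 h are shown by colour for the 76 tested genes (rows) at 1, 2, 6 and 24 h of IGF1 (columns), with dots where the adjusted p was under 0.05. Red fills most rows at 2 and 6 h, and the blue cells with a dot are Mrpl24 and Mrpl34 at 6 h.

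The rise at 2 h was smaller without 2 h replicate 4. Then 21 genes were higher, all of them among the 30, 2 were lower, and the median log2 fold change was 0.13. In that fit 20.5% of all tested genes were higher and 18.9% lower at 2 h. Without 2 h replicate 4 the values at 6 h stood as they were, with a median of 0.26. There 45 genes were called higher, including the 37, against 23.4% of all tested genes. Over all tested genes the median log2 fold changes of the 3 length classes up to 4 kb were 0.0328 to 0.102 at 2 h and 0.0174 to 0.0219 at 6 h. In the class above 8 kb they were −0.114 at 2 h and −0.0647 at 6 h. A fit with each library's trend on gene length as an offset, chosen after seeing the data, gave 29 higher and 2 lower at 2 h, and 38 higher and 2 lower at 6 h. Its medians were 0.19 at 2 h and 0.25 at 6 h, and 21.4% and 22.4% of all tested genes were higher in it.

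**Figure D3:**
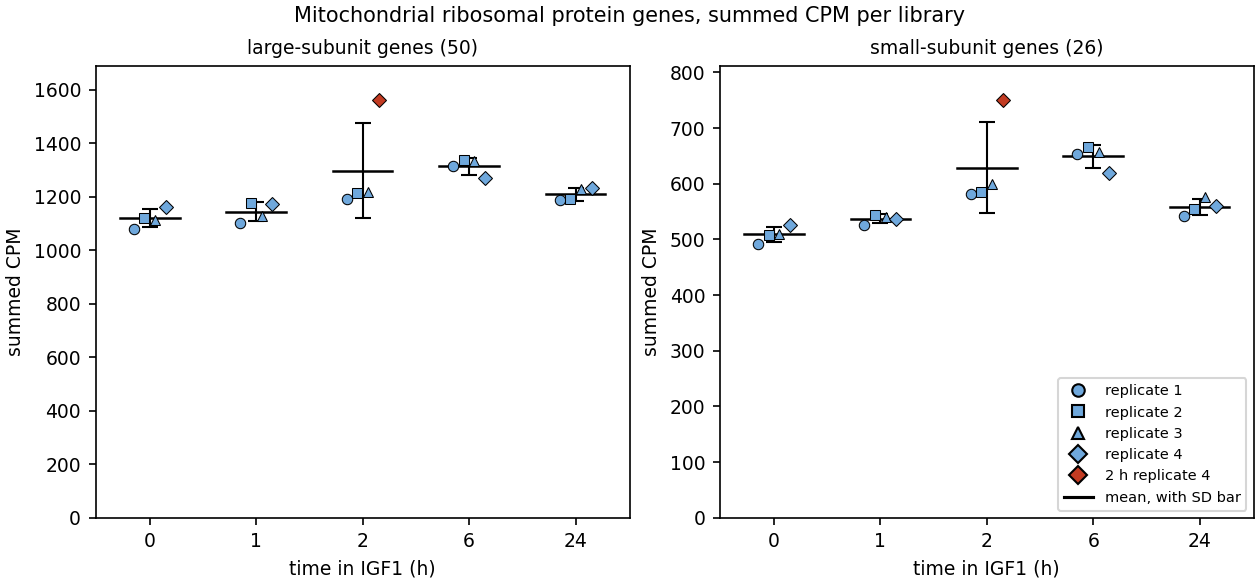
Summed CPM of the large-subunit and the small-subunit genes is plotted for each library by time in IGF1, with the mean and SD of 4 libraries as black lines. For both subunits the libraries at 6 h all lie above those at 0 h, and 2 h replicate 4 (red) lies above every other library.

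The summed level of all 77 genes was 1891 to 2008 CPM at 6 h, against 1575 to 1691 CPM at 0 h. At 24 h it was 1733 to 1809 CPM, above all 4 libraries at 0 h but below all 4 at 6 h. At 2 h it was 1777, 1803, 1819 and 2318 CPM, the last in replicate 4. The 1 h libraries, at 1630 to 1726 CPM, overlapped those at 0 h. In RNA from whole cultures, fewer cells of a type and less RNA per cell cannot be told apart.

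The genes with the highest rise at 6 h came from both subunits. Mrps25 (chr6:92169525-92184033, minus strand, mm10), a small-subunit protein specific to mitochondria, had 22.3, 24.5, 23.3 and 20 CPM at 6 h, against 11.8, 12.8, 14.8 and 15.3 CPM at 0 h. All 4 libraries at 6 h lay above all 4 at 0 h, with a log2 fold change of 0.72 ± 0.10 (SE, adjusted p = 2.21e-06). At 2 h Mrps25 had 14.4, 14.5, 14.9 and 17.8 CPM and was not called (log2 fold change 0.17, adjusted p = 0.219). Its step between 2 h and 6 h was 0.55 ± 0.10 (SE, adjusted p = 0.000171).

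Mrpl18 (chr17:12911349-12916345, minus strand), the mitochondrial counterpart of bacterial L18, had 20.8, 21.9, 22.6 and 20.1 CPM at 6 h, against 12.6, 14.4, 14.0 and 12.5 CPM at 0 h. It rose by 0.67 ± 0.095 at 6 h (SE, adjusted p = 1.87e-06), with no overlap of the libraries. It had already risen by 0.55 ± 0.095 at 2 h (SE, adjusted p = 4.11e-05), and by 0.47 there without 2 h replicate 4. Mrps26, another small-subunit protein specific to mitochondria, had 39.3, 40.8, 35.2 and 35.9 CPM at 6 h, against 24.6, 26.8, 22.1 and 27.3 CPM at 0 h. It rose by 0.58 ± 0.09 at 6 h (SE, adjusted p = 6.67e-06) and by 0.56 ± 0.09 at 2 h (SE, adjusted p = 1.69e-05), or by 0.45 at 2 h without replicate 4.

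Mrps14 and Mrps6, counterparts of bacterial S14 and S6, rose by 0.55 and 0.54 at 6 h (adjusted p = 1.06e-05 and 9.85e-05). Both were still higher at 24 h, by 0.37 and 0.44 (adjusted p = 0.0022 and 0.00163). Mrps6 averaged 32 ± 2.41 CPM at 6 h and 29.9 ± 1.6 CPM at 24 h, against 22.02 ± 2.02 CPM at 0 h (SD, n = 4 each). At 2 h the log2 fold change of Mrps6 was 0.35 (adjusted p = 0.00706), 0.25 (adjusted p = 0.0341) without replicate 4 and 0.16 (adjusted p = 0.241) without replicates 2 and 4.

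**Figure D4:**
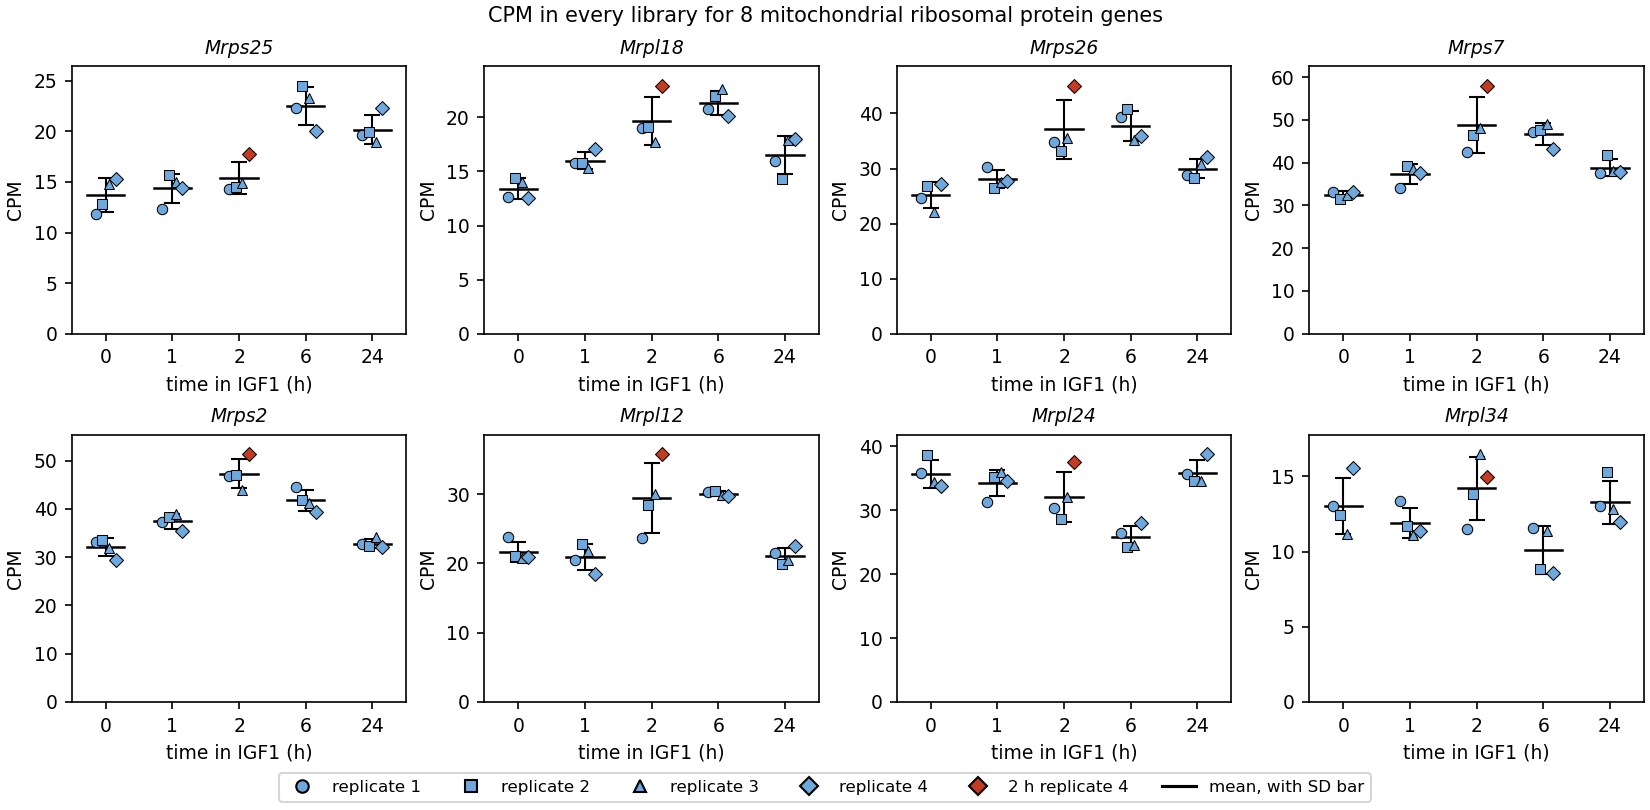
CPM in every library is plotted by time in IGF1 for 8 genes, with the mean and SD of 4 libraries as black lines and 2 h replicate 4 in red. Mrps25 is low up to 2 h and high at 6 and 24 h, Mrpl18, Mrps26, Mrps7 and Mrps2 are already high at 2 h, Mrpl12 is high at 2 and 6 h only, and Mrpl24 and Mrpl34 are lowest at 6 h.

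At 2 h the highest rises were those of Mrps7, Mrps2, Mrps26, Mrpl18, Mrpl47 and Mrps22. Mrps7 (chr11:115603925-115608036, plus strand), the counterpart of bacterial S7, had 42.6, 46.5, 48.0 and 57.9 CPM at 2 h, against 33.0, 31.4, 32.5 and 33.2 CPM at 0 h. Every library at 2 h lay above every library at 0 h, and the log2 fold change was 0.58 ± 0.08 (SE, adjusted p = 1.28e-06), or 0.49 without 2 h replicate 4. Mrps2, the counterpart of bacterial S2, had 46.8, 47.0, 44.0 and 51.3 CPM at 2 h, against 33.2, 33.6, 31.9 and 29.5 CPM at 0 h. It rose by 0.56 ± 0.07 (SE, adjusted p = 1.72e-07), or by 0.52 without 2 h replicate 4. Mrpl47, a large-subunit protein, had 22, 19.9, 19.7 and 21.2 CPM at 2 h, against 13.2, 15.5, 13.8 and 14.9 CPM at 0 h. Its log2 fold change of 0.53 ± 0.10 (SE, adjusted p = 9.9e-05) was 0.52 without 2 h replicate 4, which was not the highest of its 4 libraries. Mrps22, a small-subunit protein specific to mitochondria in which human mutations cause disease, rose by 0.51 ± 0.12 (SE, adjusted p = 0.00182), or by 0.39 without replicate 4.

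At 1 h the called genes were Mrpl19 and Mrps2. Mrpl19, the counterpart of bacterial L19, had 20.2, 17.5, 18.8 and 22.5 CPM at 1 h, against 16.2, 17.4, 13.4 and 14.4 CPM at 0 h. It was higher by 0.36 ± 0.09 at 1 h (SE, adjusted p = 0.00847), by 0.48 after 2 h (0.46 without 2 h replicate 4) and by 0.60 after 6 h, and was back near its start at 24 h (0.13, adjusted p = 0.353). Mrps2 was higher by 0.23 ± 0.07 at 1 h (SE, adjusted p = 0.0261), but lost the call without 0 h replicate 3 (0.23, adjusted p = 0.0567) or 0 h replicate 4 (0.19, adjusted p = 0.107). The same held without 1 h replicate 2 (0.22, adjusted p = 0.0684) or 1 h replicate 3 (0.21, adjusted p = 0.0847). Without any 1 of these libraries, 1 gene was called higher at 1 h.

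The 12 genes called higher at 24 h were Mrps25, Mrps6, Mrpl42, Mrpl45, Mrps14, Mrpl57, Mrpl52, Mrpl18, Mrps7, Mrps26, Mrps16 and Mrps23. Mrps25 had 19.6, 19.9, 19.0 and 22.3 CPM at 24 h, all above the 0 h libraries, with a log2 fold change of 0.56 ± 0.10 (SE, adjusted p = 0.000144). Mrpl42 and Mrpl45, large-subunit proteins specific to mitochondria, were not called at 2 h and were higher at both later times. Mrpl42 rose by 0.36 at 6 h and 0.43 at 24 h (adjusted p = 0.00169 and 0.00056), and Mrpl45 by 0.43 and 0.38 (adjusted p = 3.43e-05 and 0.00039). Mrpl57 was called at 24 h alone, with 19.5, 24.9, 22.3 and 19.5 CPM at 24 h, against 17.4, 16.7, 16.2 and 18.04 CPM at 0 h. Its log2 fold change was 0.34 ± 0.11 (SE, adjusted p = 0.0276), and the call was lost when either of 24 h replicates 2 and 3 was left out (adjusted p = 0.123 and 0.0656) or either of 0 h replicates 2 and 3 (adjusted p = 0.0626 and 0.0727).

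Several calls at 24 h rested on single libraries. Without 24 h replicate 3 the count was 6 in place of 12, a share below the 10.9% of all tested genes in that fit. Mrpl18 (0.31, adjusted p = 0.0192) lost its call when either of 24 h replicates 3 and 4 was left out (adjusted p = 0.0704 and 0.0691) or either of 0 h replicates 1 and 4 (adjusted p = 0.0607 and 0.0617). Mrps26 (0.25, adjusted p = 0.0415) lost it without either of 24 h replicates 3 and 4 (adjusted p = 0.0874 and 0.116) or of 0 h replicates 1 and 3 (adjusted p = 0.0874 and 0.151). Mrpl52 (0.33, adjusted p = 0.0347) lost it without any 1 of 24 h replicates 3 and 4 and 0 h replicates 1 to 3 (adjusted p = 0.058 to 0.14). Mrps7 (0.26, adjusted p = 0.0168) lost it without 24 h replicate 2 (adjusted p = 0.0669).

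Between successive times, with all libraries, most genes moved up early and down late. From 1 h to 2 h, 14 were higher and 0 lower at 2 h, against 7.5% and 8.84% of all tested genes, and at an unadjusted p under 0.05 the number lower was also 0. Without 2 h replicate 4 the 14 became 5, a share below the 9.65% of all tested genes called higher in that fit. Without 1 h replicates 1, 2 or 3 they became 6, 8 and 7, against 4.79%, 5.35% and 5.82% of all. At 6 h against 2 h, 4 were higher and 3 lower, with 13.6% and 13.7% of all tested genes. Without 2 h replicate 4 there were 16 higher and 2 lower, against 16% and 15.7% of all. Without 6 h replicates 1, 2 or 4 there were 2 higher, against 11.3% to 11.9% of all. At 24 h against 6 h, 3 were higher and 21 lower, against 17.6% and 18.2% of all tested genes, and the median log2 fold change was −0.16. The 3 became 1 when 24 h replicate 2 or either of 6 h replicates 2 and 4 was left out.

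The largest falls at 24 h against 6 h were those of Mrps27, Mrpl47, Mrpl12 and Mrpl19, while the median of the 76 genes was −0.16. Mrps27, a small-subunit protein specific to mitochondria, had 10.04, 12.7, 12.8 and 10.3 CPM at 24 h, against 17.9, 17.3, 16.03 and 18.95 CPM at 6 h, and its level fell by 0.61 on the log2 scale (SE 0.12, adjusted p = 0.000259). Mrpl12, the counterpart of the L7/L12 stalk protein, which recruits translation factors, had 21.6, 19.9, 20.5 and 22.5 CPM at 24 h, against 30.3, 30.4, 29.9 and 29.7 CPM at 6 h. The libraries did not overlap, and Mrpl12 fell by 0.51 (SE 0.10, adjusted p = 0.00013). Mrpl47 fell by 0.56 (adjusted p = 6.39e-05) and Mrpl19 by 0.48 (adjusted p = 0.000152). These comparisons share the 6 h libraries with those against 0 h.

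Mrpl24 and Mrpl34 went the other way at 6 h. Mrpl24 (chr3:87919506-87923672, plus strand), the counterpart of bacterial L24, had 26.4, 24.3, 24.6 and 27.9 CPM at 6 h, against 35.8, 38.7, 34.4 and 33.8 CPM at 0 h. All 4 libraries at 6 h lay below all 4 at 0 h, and it fell by 0.47 on the log2 scale (SE 0.08, adjusted p = 4.07e-05). At 24 h it had 35.6, 34.6, 34.5 and 38.7 CPM, close to 0 h and higher than at 6 h by 0.47 ± 0.08 (SE, adjusted p = 4.38e-05). At 2 h it was not called with all libraries (log2 fold change −0.15, adjusted p = 0.145). It was called lower there without 2 h replicate 4 (−0.24, adjusted p = 0.0111) and with the length offset (−0.21, adjusted p = 0.0176).

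Mrpl34, the counterpart of bacterial L34, had 11.6, 8.84, 11.4 and 8.61 CPM at 6 h, against 13.0, 12.4, 11.1 and 15.6 CPM at 0 h. The groups overlapped, and its log2 fold change of −0.37 (SE 0.13, adjusted p = 0.0239) was no longer called without 0 h replicate 4 (−0.27, adjusted p = 0.118), 6 h replicate 2 (−0.31, adjusted p = 0.0835) or 6 h replicate 4 (−0.30, adjusted p = 0.095). Mrpl24 was then the 1 gene called lower at 6 h.

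Both subunits took part. At 6 h, 16 of 26 small-subunit genes (61.5%) were higher, with a median log2 fold change of 0.35. Of 49 tested large-subunit genes, 21 (42.9%) were higher and 2 lower, with a median of 0.22. Over all tested genes, 20.6% were higher and 19.6% lower at 6 h. The ratio of the summed CPM of the large-subunit genes to that of the small-subunit genes averaged 2.20 ± 0.013 in cells with no IGF1 and 2.13 ± 0.048 after 1 h. After 2 h it averaged 2.06 ± 0.023, after 6 h 2.02 ± 0.019 and after 24 h 2.17 ± 0.032 (SD, n = 4 libraries for each time). Its range was 2.01 to 2.05 at 6 h and 2.18 to 2.21 at 0 h, and at 2 h it was 2.03 to 2.08 with replicate 4 included. Of the 45 genes assigned a bacterial counterpart, 21 were higher and 2 lower at 6 h, with a median of 0.23. Of the 28 tested genes assigned as specific to mitochondria, 14 were higher, with a median of 0.30. Mrpl47, which has a known bacterial counterpart, was counted among the latter, so both sets differ from the known classes by this gene. These medians are descriptions, and their differences were not tested.

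The paralogues of bacterial S18 are found in different places: Mrps18b and Mrps18c in the small subunit and Mrps18a in the large. Mrps18b had 19.0, 18.7, 18.7 and 19.4 CPM at 6 h, against 14.0, 15.4, 13.1 and 14.3 CPM at 0 h, and rose by 0.42 ± 0.08 (SE, adjusted p = 0.000208). It was not called at 2 h (0.19, adjusted p = 0.0792). Mrps18c averaged 12.0 ± 1.25 CPM at 6 h and 8.64 ± 0.906 CPM at 0 h (SD, n = 4 each), a rise of 0.48 ± 0.14 (SE, adjusted p = 0.00577). Mrps18a averaged 26.8 ± 1.3 CPM at 6 h and 22.8 ± 0.63 CPM at 0 h (SD, n = 4 each), with a log2 fold change of 0.23 (adjusted p = 0.0376). That call was lost without any 1 of the 4 libraries at 0 h or of 6 h replicates 2, 3 and 4 (log2 fold changes of 0.20 to 0.24, adjusted p = 0.0519 to 0.105).

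Mrps30, which despite its symbol sits in the large subunit, had 21.3, 20.1, 15.2 and 26.3 CPM at 2 h, against 16.3, 15.94, 15.95 and 17.3 CPM at 0 h. The 2 h libraries spread on both sides of those at 0 h, and its log2 fold change of 0.34 (adjusted p = 0.0337) was 0.21 (adjusted p = 0.17) without 2 h replicate 4. The call was also lost without 2 h replicate 1 or 0 h replicates 1, 2 or 3 (0.33 to 0.34, adjusted p = 0.0655 to 0.0722). Mrps36, a protein now known as a part of the 2-oxoglutarate dehydrogenase complex, averaged 3.45 ± 0.615 CPM at 6 h and 2.41 ± 0.667 CPM at 0 h (SD, n = 4 each) and was not called at any time (0.51 at 6 h, adjusted p = 0.0561).

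Of the 31 genes not called at any single time against 0 h, some are given here with their spreads. Mrpl54, the gene with the highest level per length, averaged 31.1 ± 2.6 CPM at 6 h and 29.9 ± 1.7 CPM at 0 h (SD, n = 4 each; log2 fold change 0.06, SE 0.10, adjusted p = 0.699). Mrpl55, the counterpart of bacterial L31, averaged 8.31 ± 0.64 CPM at 6 h and 7.69 ± 0.55 CPM at 0 h (0.11, SE 0.14, adjusted p = 0.574). Mrps12, the counterpart of the decoding-site protein S12, averaged 18.1 ± 2.2 CPM at 6 h and 16.04 ± 1.91 CPM at 0 h (0.18, SE 0.12, adjusted p = 0.273). A p above the threshold does not show that these genes did not change.

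Many of these genes share exonic bases with a neighbour, and whether reads were counted by strand is not given, so reads of such pairs cannot be told apart. Of the 77 genes, 32 share exonic bases with another gene and 30 with a gene of the table. At 6 h, 22 of the 47 tested genes without a counted partner were higher and 1 lower (median log2 fold change 0.23), and 15 of the 29 with one were higher and 1 lower (median 0.27). Over all tested genes, 20.6% were higher and 19.6% lower. The gene with the highest rise, Mrps25, shares 69.8% of its exonic bases with Nr2c2 on the opposite strand. Nr2c2, a nuclear receptor, had a log2 fold change of −0.64 at 6 h (adjusted p = 0.0469), opposite in sign to Mrps25. Mrpl19 shares 36.0% with Gcfc2 (log2 fold change 0.37 at 6 h, adjusted p = 0.0266), and Mrpl24 shares 26.3% with Rrnad1 (0.15, adjusted p = 0.358). Mrps6 shares 10.4% with Slc5a3, a myo-inositol transporter on the same strand, which rose by 0.69 at 6 h (adjusted p = 0.00151). Mrpl47 shares 13.9% with Ndufb5 and 10.2% with Actl6a. With all libraries Ndufb5 and Actl6a rose by 0.33 and 0.31 at 2 h (adjusted p = 0.00415 and 0.00121). Mrps7 shares 6.1% with Gga3, which rose by 0.26 at 2 h (adjusted p = 0.0218). It also shares 5.7% with Mif4gd, which was not called at 2 h (0.04, adjusted p = 0.82). Mrps27 shares 24.2%, Mrps18b 30.5% and Mrpl18 10.1% with other genes. The partner of Mrpl18 is Tcp1, a chaperonin subunit, which rose by 0.46 at 6 h (adjusted p = 5.16e-07).

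Mrpl46 and Mrps11 lie head to head on chromosome 7 and share 173 exonic bases. Mrps11, the counterpart of S11, averaged 15.95 ± 1.12 CPM at 6 h and 12.2 ± 2.1 CPM at 0 h (SD, n = 4 each) and was called (0.38, adjusted p = 0.0242). It lost the call without 0 h replicate 1 (0.38, adjusted p = 0.0502), 0 h replicate 2 (0.28, adjusted p = 0.111) or 6 h replicate 2 (0.34, adjusted p = 0.0767). Mrpl46 averaged 13.6 ± 0.553 CPM at 6 h and 12.4 ± 1.55 CPM at 0 h (SD, n = 4 each) and was not called (0.14, adjusted p = 0.441).

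Of 6 mitoribosomal proteins with other symbols, 1 was higher at 1 h, 3 at 2 h and 2 at 6 h, and all 6 log2 fold changes were positive at 2 h and at 6 h. Over all tested genes, 6.75%, 20.2% and 20.6% were higher at 1, 2 and 6 h. Ptcd3 rose at 1, 2 and 6 h (0.35, 0.46 and 0.54, adjusted p = 0.00177, 1.81e-05 and 1.2e-06), while Dap3, a small-subunit GTP-binding protein, was not called at any time. Ptcd3 is a pentatricopeptide repeat protein of the small subunit. Of 27 genes for ribosome assembly and rRNA modification, 5 were higher (18.5%) and 3 lower (11.1%) at 6 h, shares at or below the 20.6% and 19.6% of all tested genes, with a median log2 fold change of −0.0017. Among them Rpusd4, a pseudouridine synthase, rose at each time (0.67 at 2 h, or 0.63 without 2 h replicate 4), and Tfb1m, which methylates the small-subunit rRNA, fell at 2 h (−0.79, adjusted p = 0.00259, or −0.84 without that library).

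Of 15 translation factors, 6 were higher (40%) and 1 lower at 6 h, with a median of 0.35, and 20.6% of all tested genes were higher. Tufm, the elongation factor Tu of mitochondria, rose by 0.64 (adjusted p = 4.28e-06), and its exchange factor Tsfm rose by 0.49 (adjusted p = 0.000362). Gfm1, the elongation factor G, rose by 0.38 (adjusted p = 3.8e-05), and Lrpprc, which stabilises mitochondrial mRNA, rose by 0.58 (adjusted p = 5.85e-08). At 2 h, 2 of the 15 were higher and 3 lower, with a median of 0.013, and 1 was higher without 2 h replicate 4. Over all tested genes, 20.2% were higher and 17.5% lower at 2 h. Of 17 mitochondrial aminoacyl-tRNA synthetases, 6 were higher (35.3%) and 2 lower (11.8%) at 6 h, and Yars2, for tyrosine, rose by 0.68. Among 9 genes for transcription and replication of mitochondrial DNA, Twnk, the helicase, fell at 1 h and 2 h (−0.53 and −0.81, and −0.89 at 2 h without 2 h replicate 4).

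The RNAs of mitochondrial DNA itself that were examined here were not called higher at any time. Of the 13 protein genes of mitochondrial DNA, 7 were in the table. Their mRNAs had median log2 fold changes of 0.0633 after 1 h, 0.0874 after 2 h and 0.0485 after 6 h. At 24 h mt-Co1 and mt-Nd5 fell (−0.29 and −0.19). The 2 rRNAs of the mitochondrial ribosome, mt-Rnr1 and mt-Rnr2, were not called against 0 h at any time. Their log2 fold changes at 6 h were −0.25 and −0.22 (adjusted p = 0.157 and 0.234), opposite in sign to most of the protein genes.

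Among the regulators of mitochondrial biogenesis, 5 of 9 tested were higher and 1 lower at 2 h, the same counts as without 2 h replicate 4. Over all tested genes, 20.2% were higher and 17.5% lower at 2 h, or 20.5% and 18.9% without that library. Pprc1, a coactivator of the PGC-1 family that responds to growth factors, rose at 1, 2 and 6 h (0.35, 0.39 and 0.40) and fell at 24 h (−0.23). Myc rose at 2 h and 6 h (0.43 and 0.29) and fell at 24 h (−0.33). Nrf1 (0.39), Esrra (0.41) and Yy1 (0.20) also rose at 2 h, and Gabpa, the DNA-binding part of GABP, fell (−0.29). Ppargc1a and Ppargc1b, the other members of the PGC-1 family, averaged 0.311 to 3.21 CPM over the times and were not called.

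Against gene lists of related function the mitochondrial ribosomal proteins had other values at 24 h, and the differences were not tested. Of all tested genes, 6.75% were higher after 1 h, 20.2% after 2 h, 20.6% after 6 h and 12.7% after 24 h. The shares lower were 3.88%, 17.5%, 19.6% and 13.2%. Of 76 cytosolic ribosomal protein genes, 39 were higher after 2 h (51.3%), 15 were higher (19.7%) and 4 lower after 6 h, and 17 were lower after 24 h (22.4%). The 19.7% higher after 6 h was close to the share of all tested genes. Of 77 nuclear genes of the respiratory chain and ATP synthase, 47 were higher after 2 h, 43 after 6 h and 35 after 24 h, with 1, 3 and 1 lower. Of 40 genes for the assembly of cytosolic ribosomes, 17 were higher after 1 h, 35 after 2 h, 37 after 6 h and 1 after 24 h. In this list 1 was lower after 6 h and 6 after 24 h, and the 6 were 15% of the list, near the 13.2% of all tested genes. The medians at 24 h were 0.10 for the mitochondrial ribosomal proteins, −0.11 for the cytosolic ones, 0.23 for the respiratory chain and −0.08 for ribosome assembly.

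These counts also moved with 2 h replicate 4. Without it the cytosolic ribosomal proteins had 26 higher and 8 lower at 2 h, 28 higher and 10 lower at 6 h, and 1 higher and 29 lower at 24 h. The respiratory chain genes then had 30 higher and 3 lower at 2 h, and 48 higher at 24 h. With the length offset 36 cytosolic ribosomal protein genes were lower at 24 h, and the ribosome assembly genes had 35 higher at 2 h and 37 at 6 h in both fits.

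**Figure D5:**
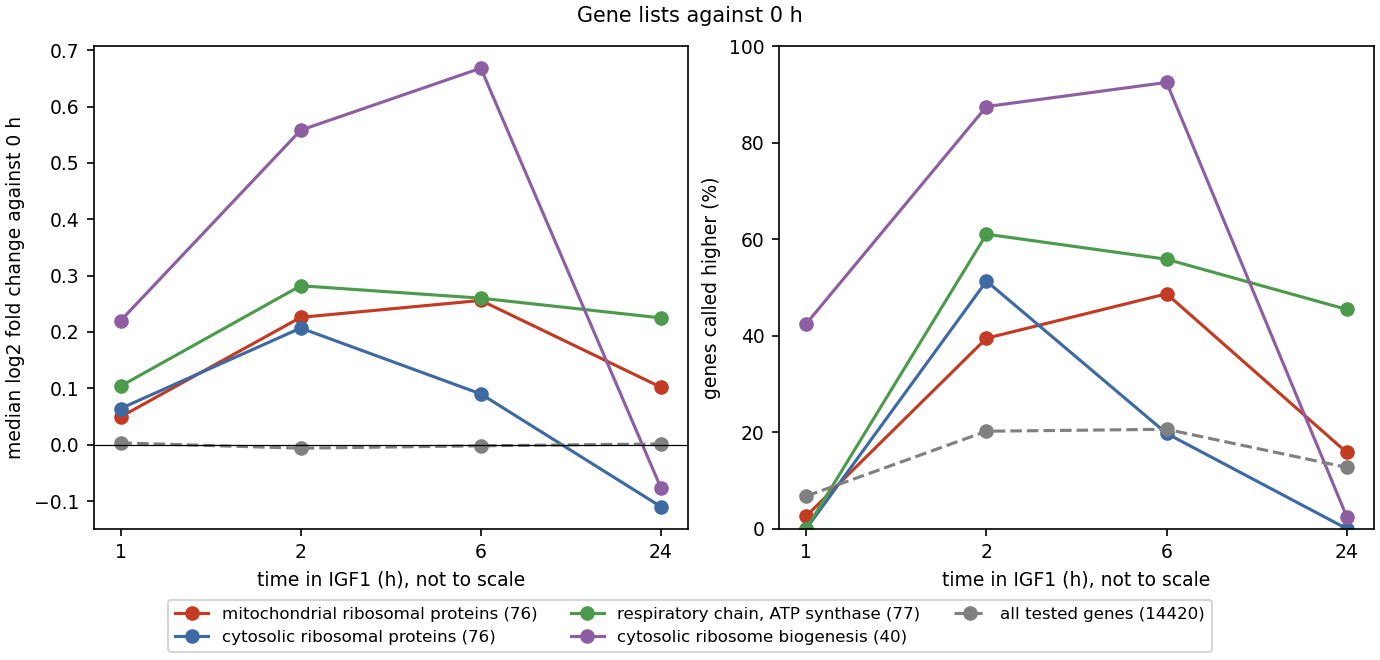
The median log2 fold change against 0 h (left) and the percentage of genes called higher (right) are plotted at 1, 2, 6 and 24 h of IGF1 for 4 gene lists and for all tested genes (dashed). The mitochondrial ribosomal proteins (red) reach 0.26 at 6 h and 0.10 at 24 h, where the respiratory chain genes (green) are at 0.23 and the cytosolic ribosomal proteins (blue) at −0.11.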

How the data were processed

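The authors deposited raw read counts per gene for 20 libraries. The submitters' processing notes name mm10, FastQC, STAR and edgeR. Which counter, strand setting and library kit were used is not stated in the labels or notes. All columns were mapped to samples. Counts were tested in R 4.3.3 with edgeR 4.0.16: genes with low counts were removed by filterByExpr (14420 kept, with 99.9% of counts), TMM scaling was applied, and a robust quasi-likelihood test was fitted on 5 groups with 15 residual degrees of freedom. P-values were adjusted by Benjamini-Hochberg over all 14420 genes, and a gene was called below 0.05. CPM used TMM-scaled library sizes, and RPKM used GENCODE M21 exon lengths. The members and gene lists were chosen with earlier results of these data known. Named genes were up to 6 called genes with the largest rise or fall at each time, the 3 highest and 3 lowest per length, and a fixed set (Mrps18a to c, Mrps30, Mrps36, Mrps6, Mrpl12, Mrpl55 and Mrps12). Mrps27, Mrpl46, Mrps11, Mrpl32, Dap3, Gfm1 and the mitochondrial rRNAs were chosen after their values were seen. The 0 h replicate 2 library carries the description of 0 h replicate 1, but their counts differed (chi-square per degree of freedom 9.28, against 2.99 to 57.4 over replicate pairs), so both were kept. DESeq2 1.42.0, RLE scaling, other filters, a replicate block, fits on fewer libraries and a length offset were alternatives. The scripts were tested on simulated data.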

Additional observations from a re-analysis of the deposited data

Results flagged for a closer look

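In 15 of 175 groups of 4 libraries (8.57%), 1 library lay farther from the other 3 than Dixon's 95% limit, which chance exceeds in about 1 in 20 groups. Of the 15, 5 were high values in 2 h replicate 4. There the summed level was 2318 CPM, against 1777 to 1819 CPM in the other 3 libraries. It was 1563 CPM for the large-subunit genes (1193 to 1217 CPM in the others) and 751.1 CPM for the small-subunit genes (581.1 to 599 CPM). Mrps25 had 17.79 CPM in it (14.35 to 14.91 CPM in the others) and Mrpl46 had 18.13 CPM (13.2 to 13.38 CPM).

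At 0 h, Mrpl12 was high in replicate 1 with 23.77 CPM, against 20.76 to 21.12 CPM in the other libraries. Mrps12 was low in 0 h replicate 2 with 13.2 CPM (16.64 to 17.23 CPM), and Mrpl46 was low in 0 h replicate 1 with 10.1 CPM (13.06 to 13.26 CPM). At 1 h, Mrpl55 was low in replicate 4 with 6.074 CPM (8.617 to 9.098 CPM). At 6 h, Mrpl47 was low in replicate 2 with 18.26 CPM (20.26 to 20.65 CPM), Mrpl55 was low in replicate 4 with 7.348 CPM (8.55 to 8.728 CPM), and Mrps36 was high in replicate 2 with 4.362 CPM (3.044 to 3.205 CPM). At 24 h, Mrpl54 was low in replicate 1 with 29.02 CPM (30.86 to 31.11 CPM). Mrps18a was high in 24 h replicate 4 with 30.08 CPM (23.79 to 24.85 CPM), and Mrps7 was high in 24 h replicate 2 with 41.74 CPM (37.66 to 38.08 CPM).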

How the results depend on the processing

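For the named genes, 6279 values kept their side of the threshold, 144 lost a call and 73 gained one, and no called value changed sign. The 6279 include values not called in either fit, and fits that left out a library outside the comparison. The tally is therefore not the share of calls that held. The median at 6 h against 2 h did change sign: it was 0.013 with all libraries, −0.076 without 2 h replicates 1 and 2, −0.020 to −0.010 without 2 h replicate 1, 2 or 3, and 0.13 without 2 h replicate 4. With no count filter, 1 gene was higher at 1 h and 2 were higher at 6 h against 2 h. In fits on only the libraries compared, 19 genes were higher at 2 h, 4 at 2 h against 1 h, 2 at 6 h against 2 h and 5 at 24 h against 6 h. Of all tested genes, 13.7%, 2.27%, 9.08% and 22.6% were then higher, in that order. Without 2 h replicates 1 and 2, 30 mitochondrial ribosomal protein genes were higher at 2 h against 1 h (8.31% of all tested genes). At 6 h against 2 h 1 was then higher and 5 lower (13.1% of all higher and 13.1% lower). Without 2 h replicates 2 and 4, a choice made after seeing the data, 16 were higher at 2 h, 5 at 2 h against 1 h and 13 at 6 h against 2 h. The shares of all tested genes were 16.5%, 5.54% and 14.2%. With the length offset, also chosen after seeing the data, 2 were lower at 2 h and 8 higher at 6 h against 2 h. The causes were not tested.

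Leaving out 1 library at a time gave 1 to 3 genes higher at 1 h. It gave 21 to 36 higher and 0 to 2 lower at 2 h, 33 to 45 higher and 1 to 2 lower at 6 h, and 6 to 17 higher at 24 h. Over the same fits 5.28% to 8.68% of all tested genes were higher at 1 h and 17.9% to 20.5% at 2 h. At 6 h the range was 18.5% to 23.4%, and at 24 h it was 10.8% to 15.9%. At 2 h against 1 h leaving out 1 library gave 5 to 17 genes higher. At 6 h against 2 h it gave 2 to 16 higher and 2 to 3 lower. At 24 h against 6 h it gave 1 to 4 higher and 16 to 28 lower, and 39 to 50 genes were called in the joint test of all times. The numbers lower at 1 h, at 24 h and at 2 h against 1 h were 0 to 0. With the replicate number as a block, 32 genes were higher at 2 h, 37 at 6 h and 15 at 24 h. Of all tested genes, 19.7%, 20.5% and 12.6% were higher at these times. The block fit lost the calls of Mrps2 at 6 h against 2 h and Mrps6 at 2 h against 1 h. Same-numbered libraries did not deviate together: 1 of 28 correlations of their deviations exceeded 0.1 (range −0.17 to 0.126). Depth limits genes of a few CPM, such as Mrps36 and Mrpl23.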
